A study of Mus musculus with 9 samples.

Results

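Matrix metalloproteinases are zinc-dependent enzymes that cut the proteins of the extracellular matrix. They are made as inactive precursors, are switched on when their propeptide is removed by other proteases, and are held in check by the tissue inhibitors of metalloproteinases (Timp). In cartilage they are best known for the breakdown of fibrillar collagen and of aggrecan fragments in joint disease, and several of them belong to the set of proteins that senescent cells secrete. The genes described here are the rows of the deposited expression tables whose symbol is Mmp2, Mmp3, Mmp9, Mmp10, Mmp11, Mmp12, Mmp13, Mmp14, Mmp19 or Mmp23. They make up 10 of the 55450 genes listed, and each symbol matched 1 row.

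The cells were primary articular chondrocytes of mice, the cells that build and maintain joint cartilage. The sources used here do not give strain, age or sex of the animals. The 9 RNA sequencing libraries fell into 3 groups of 3. The first group received bleomycin, which cuts DNA strands, for 24 h at 50 µg/mL. It was then kept for 5 days with 20 µM ST045849, a compound that blocks O-GlcNAc transferase. That enzyme places a single sugar on serine and threonine residues of intracellular proteins. The second group received the same bleomycin and then DMSO in place of the inhibitor, and is called bleomycin below. The third group received an equal volume of buffer in place of bleomycin and then DMSO, and is called vehicle. All cells were kept at 3% oxygen with 10% serum and were exposed without serum to hyaluronidase (4 U/mL, 4 h) before the treatment, so the vehicle group carries that exposure too. The study asks how the block of O-GlcNAc attachment affects chondrocytes that bleomycin drives towards senescence. A group given ST045849 without bleomycin was not analysed here, so the compound is seen only on top of bleomycin.

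The deposited values are FPKM, fragments scaled to exon length and library size, and are thus a level per length. Between 20355 and 23218 genes were above 0 in a library, and the steps between low values give an estimated depth of 31.3 to 35.9 M fragments per library. The chondrocyte genes Col2a1 and Acan were high in every library, and 0 of 10 chondrocyte markers were under 1 FPKM in all libraries of any group. Over the 12441 tested genes (at least 1 FPKM in at least 3 libraries), library 1 of bleomycin plus ST045849 correlated at 0.969 to 0.982 with the bleomycin libraries and at 0.936 to 0.950 with the other libraries of its own group. Some values that rest on it are therefore also given without it, while the group means include it. Libraries 2 and 3 of that group also differed in how level followed exon length, with slopes of -0.21 and -0.14 log2 units per doubling of length, against -0.07 to 0.10 in the other 7 libraries. The part of exon length in the results below was not tested, and values with the length trend removed are given where they change a call.

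The 10 genes differed widely in level. Mmp13, the main fibrillar collagenase of mouse cartilage, averaged 342 ± 210 FPKM in bleomycin plus ST045849, 369 ± 140 FPKM in bleomycin and 72.0 ± 43.6 FPKM in vehicle libraries (SD, n = 3 each). By mean level it ranked 192, 115 and 723 among 12441 tested genes in those groups. Mmp2 (gelatinase A) and Mmp14 (a membrane-anchored collagenase that activates the Mmp2 precursor) followed, with means between 101 and 192 FPKM in every group. Together these 3 genes held 79.3 to 88.7% of the summed level of the 10 genes in bleomycin plus ST045849 libraries, 87.7 to 89.8% in bleomycin and 91.0 to 91.2% in vehicle libraries. In vehicle the order by mean was Mmp2, Mmp14, Mmp13, Mmp23, Mmp11, Mmp19, Mmp3, Mmp10, Mmp9 and Mmp12. In both bleomycin groups Mmp13 came first and Mmp3 stood ahead of Mmp19 and Mmp11. Neighbours whose library ranges overlapped were Mmp2 and Mmp14 in all 3 groups, Mmp14 and Mmp13 in vehicle, Mmp13 and Mmp2 in bleomycin plus ST045849, Mmp3 and Mmp19 in both bleomycin groups, Mmp23 and Mmp3 in bleomycin, Mmp10 and Mmp9 in all 3, and Mmp9 and Mmp12 in bleomycin and in vehicle. Overlap of these ranges does not show that neighbours are alike, since both genes are read in the same libraries. Within each library Mmp13 stood above Mmp2 in bleomycin plus ST045849. In each bleomycin library Mmp23 stood above Mmp3, Mmp3 above Mmp19 and Mmp9 above Mmp12. The other overlapping neighbours changed order between libraries, except Mmp9 and Mmp12 in vehicle, where library 1 listed both at 0.

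**Figure D1:**
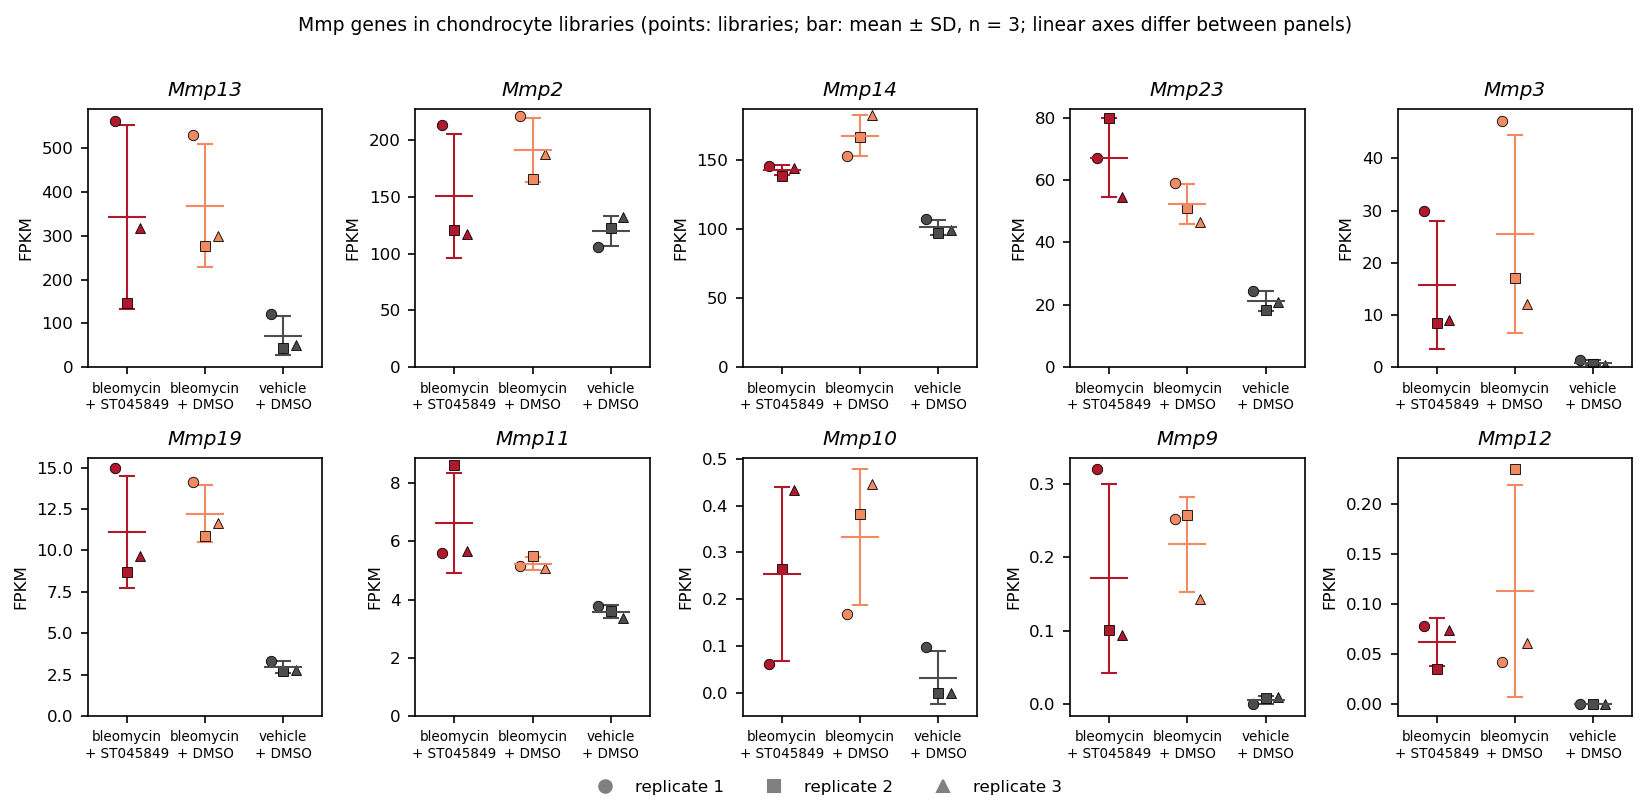
Level of each of the 10 Mmp genes (FPKM, linear axes that differ between panels) in bleomycin plus ST045849, bleomycin and vehicle libraries; symbols mark replicate numbers 1 to 3, and bars give mean ± SD (n = 3). Mmp3, Mmp13, Mmp19, Mmp23, Mmp14 and Mmp11 lay higher in every library of both bleomycin groups than in every vehicle library, while Mmp10, Mmp9 and Mmp12 stayed under 0.5 FPKM throughout.

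Bleomycin against vehicle asks what the DNA-damaging treatment does to these genes 5 days later. Of the 7 genes that reached 1 FPKM in at least 3 libraries and were tested, 5 rose with bleomycin (Mmp3, Mmp13, Mmp19, Mmp23 and Mmp14) and 0 fell, at an adjusted p under 0.05 in limma's moderated linear model. Among all 12441 tested genes 4.2% rose and 0.675% fell by the same rule. The median log2 difference of the 7 was 1.27, beside 0.10 for all tested genes. In all 7 the 3 bleomycin libraries lay above the 3 vehicle libraries, as in 21.4% of the tested genes. The other 3 genes did not reach the level needed for a test. Nothing in the labels tells if replicates stem from separate mice or dishes. The p-values thus measure only the spread between these samples, which may be technical.

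The stromelysin gene Mmp3, whose product cuts proteoglycans and activates the precursors of collagenases, showed the largest difference of the 7 tested genes. It stood at 47.2, 17.0 and 12.2 FPKM in bleomycin libraries 1, 2 and 3, against 1.40, 0.634 and 0.417 FPKM in vehicle libraries 1, 2 and 3. Library 1 was the highest in each group, and the lowest bleomycin library was well above the highest vehicle library. The log2(FPKM + 1) difference was 3.67 ± 0.52 (SE; limma adjusted p = 0.00384), and the added 1 understates the change of a gene as low as Mmp3 in vehicle. The level of Mmp3 in vehicle rests on an estimated 90.2, 40.7 and 24.8 fragments. Of its 50-base stretches, 8.39% also occur in another gene, chiefly Mmp10. The collagenase gene Mmp13 stood at 530, 277 and 299 FPKM in bleomycin libraries, against 122, 42.6 and 51.2 FPKM in vehicle libraries. Here too library 1 was the highest of each group and the groups did not overlap. Its difference was 2.43 ± 0.51 (limma adjusted p = 0.0221). The Mmp3 call survived the removal of any 1 of the 9 libraries. The Mmp13 call was lost without bleomycin library 1, 2 or 3 (adjusted p = 0.0899, 0.0551 and 0.0593), without vehicle library 2 or 3 (0.101 and 0.0926) and with no filter on low values (0.0887).

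Mmp19, which cuts basement membrane proteins and aggrecan, stood at 14.1, 10.9 and 11.7 FPKM in bleomycin libraries, against 3.34, 2.72 and 2.78 FPKM in vehicle libraries. The groups were narrow and far apart. The log2 difference was 1.74 ± 0.22 (limma adjusted p = 0.00263). Tmem198b lies on the opposite strand and overlaps 22.3% of the Mmp19 exon sequence. Its own level was 3.94 to 4.99 FPKM in bleomycin and 5.12 to 5.41 FPKM in vehicle libraries. The part of Tmem198b in the Mmp19 values was not tested. Mmp23, a membrane-anchored member without the hemopexin domain that most of the family carry, stood at 59.1, 51.1 and 46.5 FPKM in bleomycin libraries, against 24.4, 18.3 and 20.8 FPKM in vehicle libraries. Every bleomycin library was above every vehicle library, and the difference was 1.27 ± 0.21 (limma adjusted p = 0.00733). Calls of Mmp19 and Mmp23 survived the removal of any 1 library.

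Mmp14 and Mmp2 act together, since the Mmp14 protein removes part of the Mmp2 propeptide at the cell surface. Mmp14 stood at 153, 167 and 183 FPKM in bleomycin libraries, against 107, 97.2 and 99.2 FPKM in vehicle libraries. The groups lay apart and the difference was 0.72 ± 0.18 (limma adjusted p = 0.0478). This call was at the edge of the threshold and was kept in 2 of 9 fits that left out a library, those without library 1 or 2 of bleomycin plus ST045849 (adjusted p = 0.0349 without library 1). It was lost without library 3 of that group (0.0546), bleomycin library 1, 2 or 3 (0.117, 0.186 and 0.192) or vehicle library 1, 2 or 3 (0.0858, 0.156 and 0.177). It was also lost in 8 of 14 alternative settings. These were quantile normalization (0.0539), robust variances (0.0587), a mean level of 5 FPKM or more (0.0649), median-of-ratios scaling (0.117), the length trend removed without and with pairing (0.0650 and 0.0652), and a replicate block over 9 or 6 libraries (0.0654 and 0.0730). Mmp2 stood at 221, 165 and 188 FPKM in bleomycin libraries, against 106, 122 and 132 FPKM in vehicle libraries. The groups did not overlap, but the difference of 0.67 ± 0.26 did not pass the test (limma adjusted p = 0.203). Mmp11 (stromelysin-3, which is activated inside the cell by furin-type convertases) stood at 5.15, 5.49 and 5.08 FPKM in bleomycin libraries, against 3.80, 3.60 and 3.36 FPKM in vehicle libraries. Its groups also lay apart, and the difference was 0.45 ± 0.19 (limma adjusted p = 0.248; 0.0285 with array weights). Chchd10 overlaps 5.58% of the Mmp11 exon sequence on the opposite strand, and stood at 2.30, 3.60 and 2.57 FPKM in bleomycin libraries, against 4.60, 2.72 and 3.43 FPKM in vehicle libraries.

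Mmp9, Mmp10 and Mmp12 were barely present. Mmp9 (gelatinase B) was listed at 0.320, 0.10 and 0.0941 FPKM in bleomycin plus ST045849 libraries, 0.253, 0.258 and 0.143 FPKM in bleomycin libraries, and 0, 0.00884 and 0.00952 FPKM in vehicle libraries. Mmp10 (stromelysin-2) was listed at 0.0623, 0.266 and 0.433 FPKM in bleomycin plus ST045849, 0.169, 0.383 and 0.445 FPKM in bleomycin, and 0.0974, 0 and 0 FPKM in vehicle libraries. Mmp12 (macrophage elastase) was listed at 0.0786, 0.0348 and 0.0739 FPKM in bleomycin plus ST045849, 0.0426, 0.235 and 0.0609 FPKM in bleomycin, and 0 in all 3 vehicle libraries. These levels correspond to at most about 39.1, 24.9 and 60.9 fragments in any library. In a fit with no filter on low values, 0 of the 3 passed the test with bleomycin against vehicle (limma adjusted p = 0.126, 0.205 and 0.302). In each of these genes the bleomycin libraries lay above the vehicle libraries, which were at 0.0974 FPKM or less. Among the tested genes 21.4% did so, and the share among genes too low for a test was not computed.

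**Figure D2:**
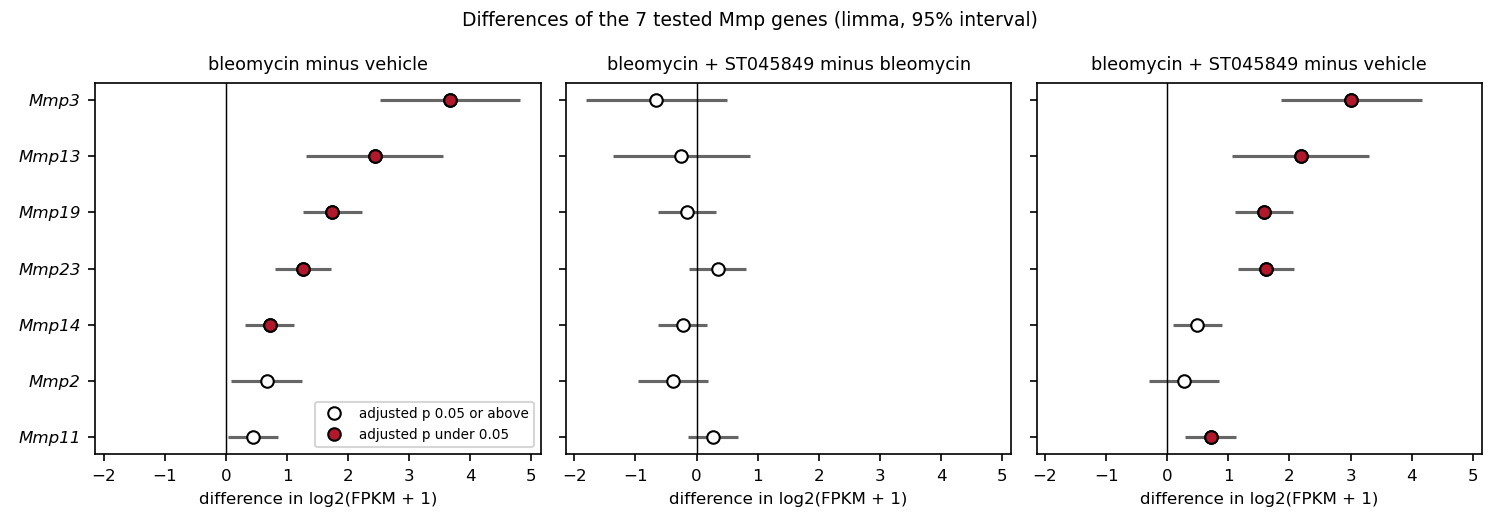
Differences in log2(FPKM + 1) of the 7 tested Mmp genes with 95% intervals from limma (n = 3 libraries per group), for bleomycin minus vehicle (left), bleomycin plus ST045849 minus bleomycin (middle) and bleomycin plus ST045849 minus vehicle (right). Filled points passed an adjusted p of 0.05, which 5, 0 and 5 genes did; in the middle panel every interval holds 0.

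Bleomycin plus ST045849 against bleomycin asks what inhibition of O-GlcNAc transferase changes in the treated cells. Of the 7 tested genes 0 were called in either direction by limma over all 9 libraries, as were 0% of the 12441 tested genes. At an unadjusted p under 0.05 there were 0 of the 7 and 2804 of all tested genes (22.5%). The median log2 difference was -0.23 for the 7 and 0.06 for all tested genes, and 5 of the 7 lay below 0, as did 44.9% of all tested genes. Without library 1 of bleomycin plus ST045849 the count of Mmp genes called stayed at 0, while that of all genes was 2225.

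Replicate numbers pair the libraries of these groups in the data, so the comparison was also made within pairs. In the paired fit of both groups 1 of the 7 was called, Mmp3, which was lower with ST045849. Among all genes 11.3% were higher and 8% lower by that rule. Mmp3 stood at 30.0, 8.39 and 9.04 FPKM in bleomycin plus ST045849 libraries 1, 2 and 3, against 47.2, 17.0 and 12.2 FPKM in bleomycin libraries of the same number. Each library with ST045849 was below its partner, at 63.5, 49.4 and 74.3% of it, but the groups overlapped. The difference of -0.66 was called with an SE of 0.19 in the paired fit (limma adjusted p = 0.0369) and not with an SE of 0.52 in the fit of 9 libraries (adjusted p = 0.425, 95% interval -1.81 to 0.49). A block for the replicate number within the fit of all 9 libraries also gave no call (adjusted p = 0.203). Without pairing, the difference was -1.21 without library 1 of bleomycin plus ST045849 and -0.11 without bleomycin library 1. Neither fit called Mmp3. In the paired fit the call held without pair 1 (0.0337) and was lost without pair 2 (0.179) or pair 3 (0.137). With the exon length trend removed as well, the paired difference was -1.04 ± 0.18 (adjusted p = 0.0441), where 0.627% of all genes were higher and 0.74% lower. Every library of both bleomycin groups was above every vehicle library in Mmp3.

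Mmp13 did not move in 1 direction. It stood at 564, 145 and 317 FPKM in bleomycin plus ST045849 libraries, against 530, 277 and 299 FPKM in bleomycin libraries. Pair 2 was lower with ST045849, at 52.5% of its partner, while pairs 1 and 3 stood at 106%. The difference was -0.25 ± 0.51 (limma adjusted p = 0.767, 95% interval -1.37 to 0.87), and its sign turned without library 2 of bleomycin plus ST045849 (0.26) or without bleomycin library 1 (0.04). Mmp14 stood at 146, 138 and 144 FPKM in bleomycin plus ST045849, against 153, 167 and 183 FPKM in bleomycin libraries. All 3 libraries with ST045849 lay below all 3 without it, as in 8.67% of tested genes, and the difference was -0.23 ± 0.18 (limma adjusted p = 0.432, 95% interval -0.63 to 0.18). Mmp2 stood at 214, 121 and 117 FPKM in bleomycin plus ST045849, against 221, 165 and 188 FPKM in bleomycin libraries. It was lower in 3 of 3 pairs with overlapping groups, and the difference was -0.39 ± 0.26 (limma adjusted p = 0.349, 95% interval -0.96 to 0.18). When a library was left out, this unpaired difference spanned -0.67 (without library 1 of bleomycin plus ST045849) to -0.24, with no call. Without pair 1 the paired fit called Mmp2 (-0.56, adjusted p = 0.0357).

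Mmp23 and Mmp11 differed the other way. Mmp23 stood at 67.1, 79.7 and 54.5 FPKM in bleomycin plus ST045849, against 59.1, 51.1 and 46.5 FPKM in bleomycin libraries, higher in 3 of 3 pairs. Its difference was 0.35 ± 0.21 (limma adjusted p = 0.310, 95% interval -0.12 to 0.81). Over the 14 alternative settings the Mmp23 difference spanned 0.034 to 0.35, with no call. Mmp11 stood at 5.61, 8.62 and 5.67 FPKM in bleomycin plus ST045849, against 5.15, 5.49 and 5.08 FPKM in bleomycin libraries. It was higher in 3 of 3 pairs, and every library with ST045849 was above every library without it, as in 16.5% of tested genes. The difference was 0.27 ± 0.19 (limma adjusted p = 0.371, 95% interval -0.15 to 0.68). For Mmp11 the alternative settings spanned 0.027 to 0.31, also with no call. The overlapping gene Chchd10 stood at 3.28, 14.0 and 8.36 FPKM in bleomycin plus ST045849, against 2.30, 3.60 and 2.57 FPKM in bleomycin libraries, also higher in every pair and highest in library 2. Its part in the Mmp11 values was not tested. Of the pairs, pair 2 differed most in both genes, at 156% of its partner for Mmp23 and 157% for Mmp11. Mmp19 stood at 14.97, 8.69 and 9.63 FPKM in bleomycin plus ST045849, against 14.1, 10.9 and 11.7 FPKM in bleomycin libraries, and its difference was -0.16 ± 0.22 (limma adjusted p = 0.657, 95% interval -0.64 to 0.33). A missed threshold does not show that these genes are alike in both groups, since the intervals of Mmp3 and Mmp13 are wide.

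**Figure D3:**
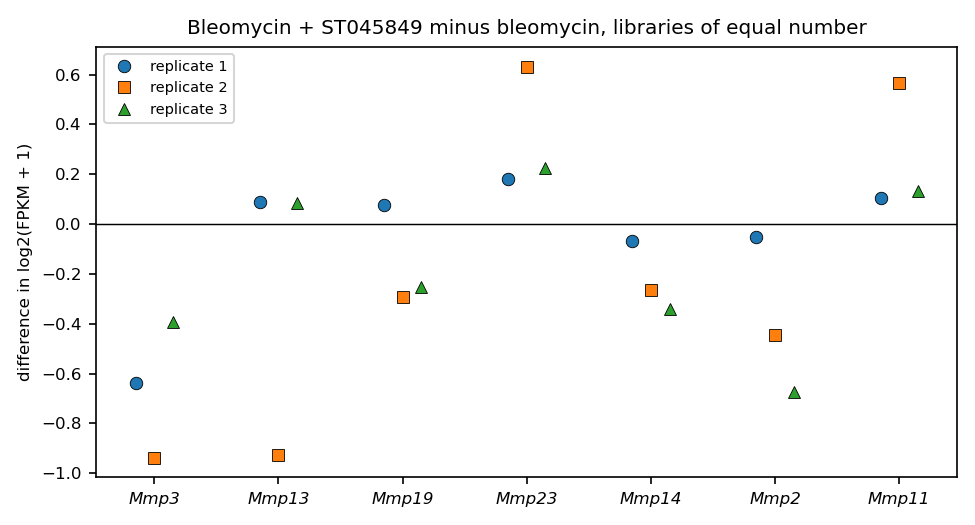
Difference in log2(FPKM + 1) between the bleomycin plus ST045849 library and the bleomycin library of the same replicate number, for the 7 tested Mmp genes; each symbol is 1 of 3 pairs. All 3 pairs of Mmp3, Mmp14 and Mmp2 lie below 0, all 3 of Mmp23 and Mmp11 lie above it, and Mmp13 and Mmp19 lie on both sides.

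Bleomycin plus ST045849 was also set against vehicle, from which it differs in both bleomycin and the inhibitor. This comparison uses the same vehicle libraries as bleomycin against vehicle, so the counts of both are not independent. Again 5 of the 7 tested genes rose and 0 fell, where 8.11% of all tested genes rose and 1.74% fell. They were Mmp3 (3.01 ± 0.52, adjusted p = 0.00687), Mmp13 (2.18 ± 0.51, 0.0244), Mmp23 (1.61 ± 0.21, 0.00214), Mmp19 (1.58 ± 0.22, 0.00259) and Mmp11 (0.71 ± 0.19, 0.0391), given as log2 differences with SE and limma adjusted p. The calls of Mmp3, Mmp13, Mmp19 and Mmp23 were thus made for both bleomycin groups, Mmp14 was called in bleomycin alone (0.49 ± 0.18 with ST045849, adjusted p = 0.0980), and Mmp11 with ST045849 alone. A call in 1 contrast alone is no difference between the treatments, and the direct comparison called neither gene. For 6 of the 7 every library with ST045849 lay above every vehicle library, as in 21% of all tested genes. Mmp2 was the exception (0.28 ± 0.26, adjusted p = 0.483). Mmp2 turned to -0.0031 without library 1 of bleomycin plus ST045849, to -0.070 under quantile normalization and to -0.018 with the length trend removed. Without that library the count of called Mmp genes was still 5.

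The calls of Mmp3, Mmp19 and Mmp23 against vehicle held in every fit that left out a library. The Mmp13 call was lost without library 3 of bleomycin plus ST045849 (adjusted p = 0.0773) and without vehicle library 2 or 3 (0.113 and 0.0968). It was also lost with no filter (0.0976), quantile normalization (0.0665), TPM (0.0656) and the length trend removed (0.0621). The Mmp11 call was lost without library 2 or 3 of bleomycin plus ST045849 (0.0901 and 0.0567), without bleomycin library 1, 2 or 3 (0.0604, 0.0612 and 0.0637) and without vehicle library 2 or 3 (0.134 and 0.141). It was lost in 9 of 14 alternative settings too, among them TPM (0.112), quantile normalization (0.0896), median-of-ratios scaling (0.116), a mean level of 5 FPKM or more (0.0567), no filter (0.0718), both groups alone (0.0995) and the length trend removed (0.245). The split of all calls moved with the scaling. In bleomycin plus ST045849 against vehicle it was 1009 higher and 216 lower, against 486 and 403 with median-of-ratios scaling, 518 and 322 with quantile normalization, 493 and 217 with TPM and 462 and 317 with the length trend removed. In bleomycin against vehicle it was 523 higher and 84 lower, against 320 and 151 with median-of-ratios scaling, 316 and 151 with quantile normalization, 548 and 83 with TPM and 382 and 190 with the length trend removed. The median log2 difference of all genes was -0.01 after median-of-ratios scaling and 0.19 as deposited with ST045849 against vehicle, and -0.05 and 0.10 with bleomycin against vehicle. TPM gave a median of -0.19 with ST045849 against bleomycin. The direction of the 5 genes called in each comparison with vehicle was kept under every scaling.

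Mmp3, Mmp10, Mmp12 and Mmp13 belong to a cluster of 10 Mmp genes on chromosome 9 (GRCm38, 7272514 to 7699585, 427 kb). Within it only Mmp13 (7272514 to 7283331, + strand) and Mmp3 (7445822 to 7455975, + strand) reached 1 FPKM in any library. Mmp1a, Mmp1b, Mmp7 and Mmp20 were listed at 0 in all 9 libraries, and 8 of the 10 genes stayed at or under 0.5 FPKM in all of them. Mmp8, the neutrophil collagenase, was at most 0.0115 FPKM, and Mmp27 at most 0.123 FPKM, both in bleomycin libraries. The genes with the highest levels thus lie at 0 and 173 kb from the start of the cluster, with silent or nearly silent genes between and beyond them. The other members lie singly: Mmp2 on chromosome 8 (92827291 to 92853420), Mmp9 on chromosome 2 (164940780 to 164955850), Mmp11 and Mmp19 on chromosome 10 (75923222 to 75936496 and 128790910 to 128800824), Mmp14 on chromosome 14 (54431612 to 54445364) and Mmp23 on chromosome 4 (155650655 to 155653384).

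**Figure D4:**
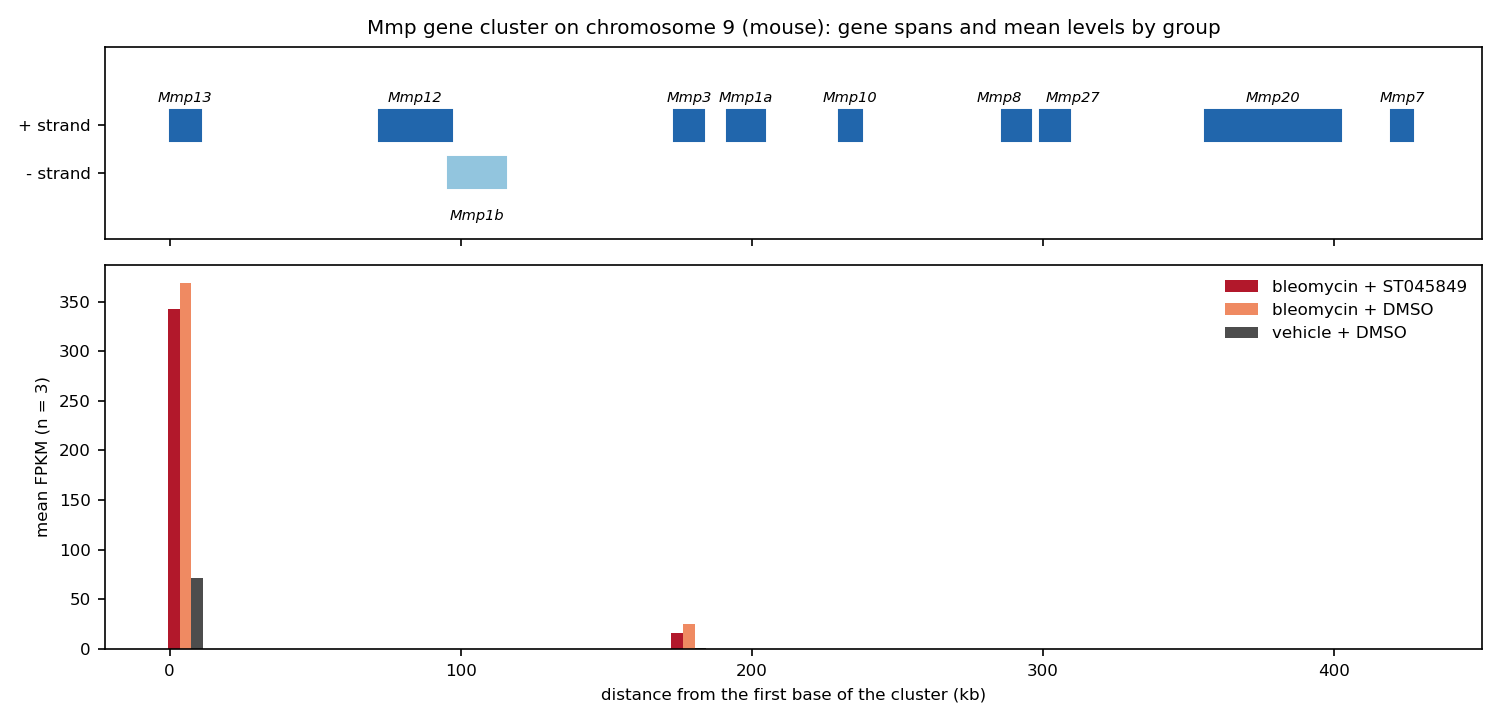
The upper panel maps the 10 Mmp genes of the chromosome 9 cluster by strand, and the lower panel gives the mean level (FPKM, n = 3) of each gene in bleomycin plus ST045849, bleomycin and vehicle libraries, against distance from the first base of the cluster (kb). Mmp13 averaged 342, 369 and 72.0 FPKM and Mmp3 15.8, 25.5 and 0.818 FPKM in that order, and the other 8 bars are too low to see.

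The promoters of Mmp3 and Mmp13 are shown because both genes rose with bleomycin, and that of Mmp10 because it shares sequence with Mmp3, lies in the same cluster and stayed under 0.5 FPKM. Each is the 250 bases before the RefSeq start on the + strand (RefSeq, GRCm38.p6), 5′ to 3′, and capitals mark a match to the AP-1 motif TGANTCA or to the TATA box TATAAA.
Mmp3, chr9:7445572-7445821: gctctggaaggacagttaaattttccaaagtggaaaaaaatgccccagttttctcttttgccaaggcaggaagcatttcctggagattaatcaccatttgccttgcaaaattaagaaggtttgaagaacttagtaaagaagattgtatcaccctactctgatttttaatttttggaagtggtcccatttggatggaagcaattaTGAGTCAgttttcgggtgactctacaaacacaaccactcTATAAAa
Mmp13, chr9:7272264-7272513: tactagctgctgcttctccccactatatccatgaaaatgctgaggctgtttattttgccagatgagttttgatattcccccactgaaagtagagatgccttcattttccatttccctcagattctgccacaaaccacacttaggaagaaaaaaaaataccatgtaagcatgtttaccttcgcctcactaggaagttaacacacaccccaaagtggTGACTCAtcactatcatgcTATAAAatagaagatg
Mmp10, chr9:7502092-7502341: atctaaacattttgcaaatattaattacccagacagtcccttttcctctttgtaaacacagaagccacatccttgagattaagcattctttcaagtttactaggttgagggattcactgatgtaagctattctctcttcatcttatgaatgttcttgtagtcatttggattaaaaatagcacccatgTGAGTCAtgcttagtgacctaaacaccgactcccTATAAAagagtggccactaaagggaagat
All 3 carry both motifs in the same order. AP-1, a dimer of Fos and Jun proteins, is a long-known regulator of the collagenase and stromelysin genes. The AP-1 match lies at -46 to -40 in Mmp3 and -35 to -29 in Mmp13, counted from the RefSeq start, and at -63 to -57 in Mmp10. The TATA match lies at -7 to -2, -16 to -11 and -29 to -24 in the same genes. Both strands of the same 250-base window were searched in 32851 RefSeq promoters, of which 6.75% held TGANTCA and 12.4% held TATAAA. RefSeq entries were matched for 7 of the 10 genes, with 9 starts. TGANTCA was found in 4 of the 9 (the 3 above and the second start of Mmp12) and TATAAA in 3. Mmp14 and Mmp23, which also rose with bleomycin, held neither of these motifs, and Mmp19 had no matched entry. The ETS motif AGGAAG was found in 4 of 9 against 29.5% of all promoters, the RUNX motif ACCACA in 3 of 9 against 14.1%, and a consensus NF-kB motif in 0 of 9 against 1.41%. Mmp10, which carries both motifs too, stayed below the level needed for a test. A match is a description of the sequence and shows no binding.

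Among Mmp genes outside the 10, 3 of 13 were high enough for a test. Mmp15, which encodes a membrane-type enzyme like Mmp14, rose in both bleomycin groups against vehicle. It averaged 1.11 ± 0.333 FPKM in bleomycin plus ST045849, 1.14 ± 0.0112 FPKM in bleomycin and 0.303 ± 0.132 FPKM in vehicle libraries (SD, n = 3 each). The log2 differences were 0.69 with ST045849 and 0.72 without it (limma adjusted p = 0.0284 and 0.0334), at a level where the added 1 weighs heavily. With ST045849 the call was lost without library 2 of that group or any vehicle library, and in bleomycin without any bleomycin or vehicle library. The highest adjusted p, both without vehicle library 3, were 0.116 and 0.137. Removal of the length trend also ended both calls (0.0760 and 0.105). Over 13 alternative settings the Mmp15 call was kept in 5 with ST045849 and in 8 without it. Mmp15 reached the 1 FPKM needed for a test only in libraries of the bleomycin groups, with vehicle at most 0.453 FPKM. Both Mmp15 calls were lost with no filter on low values. Among all tested genes 8.11% and 4.2% rose in those comparisons. Mmp16 and Mmp28 did not pass the test in any comparison, with means of 4.85, 6.33 and 7.10 FPKM for Mmp16 and 3.69, 3.71 and 2.61 FPKM for Mmp28 in bleomycin plus ST045849, bleomycin and vehicle libraries.

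Timp1, Timp2 and Timp3 bind the active site of most family members, and Reck is a membrane-anchored inhibitor. Of 5 listed inhibitors 4 were tested and 1, Timp2, rose in both bleomycin groups. By the same rule 8.11% of all tested genes rose with ST045849 against vehicle and 4.2% with bleomycin against vehicle. Timp2 stood at 509, 479 and 482 FPKM in bleomycin plus ST045849, 508, 548 and 567 FPKM in bleomycin, and 214, 206 and 228 FPKM in vehicle libraries. Every library of both bleomycin groups was above every vehicle library by a wide margin. The log2 differences against vehicle were 1.18 ± 0.19 with ST045849 and 1.32 ± 0.19 without it (limma adjusted p = 0.00583 and 0.00430). Both calls held in every fit that left out a library. The call with ST045849 was lost in the fit of those 2 groups alone with a replicate block (adjusted p = 0.132). It was also lost there with the length trend removed. For bleomycin against vehicle Timp3 gave 1.03 ± 0.27 (adjusted p = 0.0579), Reck 0.98 ± 0.36 (0.164) and Timp1 0.67 ± 0.28 (0.236).

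The summed level of the 10 Mmp genes was 511 to 1042 FPKM in bleomycin plus ST045849, 694 to 1031 FPKM in bleomycin and 287 to 368 FPKM in vehicle libraries. The sum of Timp1 to Timp4 was 1742 to 2059 FPKM in bleomycin plus ST045849, 2090 to 2282 FPKM in bleomycin and 899.5 to 1306 FPKM in vehicle libraries. Both sums therefore lay higher in every library of the bleomycin groups than in every vehicle library. The ratio of the sums was 0.293 to 0.506 in bleomycin plus ST045849, 0.327 to 0.473 in bleomycin and 0.269 to 0.319 in vehicle libraries. The bleomycin and vehicle ranges of the ratio do not overlap but lie close, and those of bleomycin plus ST045849 and vehicle overlap. Within the Mmp sum Mmp13 took 28.5 to 54.1% in bleomycin plus ST045849, 39.9 to 51.4% in bleomycin and 14.8 to 33.2% in vehicle libraries. Sums of RNA levels say nothing of active enzyme, which depends on propeptide removal. In these bulk samples fewer cells of a type and less RNA per cell cannot be told apart.

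**Figure D5:**
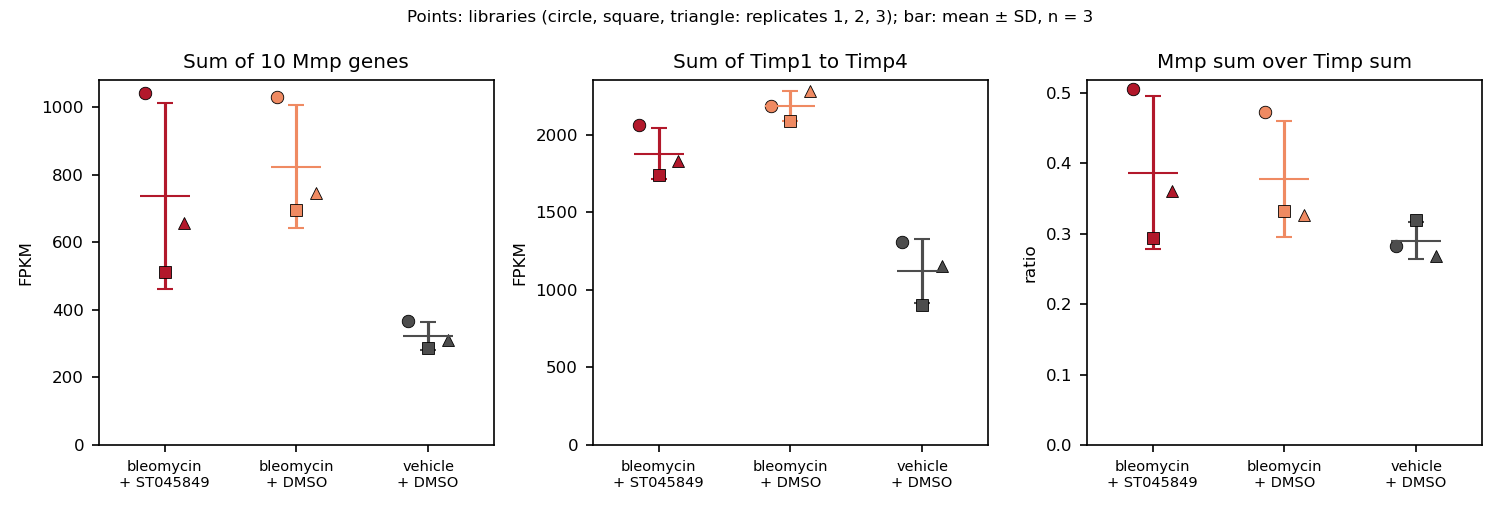
Sum of the 10 Mmp genes (FPKM, left), sum of Timp1 to Timp4 (FPKM, middle) and their ratio (right) in bleomycin plus ST045849, bleomycin and vehicle libraries; symbols mark replicates 1 to 3 and bars give mean ± SD (n = 3). The Mmp sum averaged 737 ± 274, 824 ± 181 and 322 ± 41.6 FPKM in that order and the ratio 0.387 ± 0.109, 0.377 ± 0.0826 and 0.290 ± 0.0263.

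Proteases that activate Mmp precursors were listed as 7 genes, of which 6 were tested. Plat, tissue plasminogen activator, which turns plasminogen into plasmin, rose in both bleomycin groups. It stood at 20.5, 12.4 and 11.2 FPKM in bleomycin plus ST045849, 27.0, 21.5 and 21.0 FPKM in bleomycin, and 5.67, 5.04 and 4.91 FPKM in vehicle libraries. The 3 groups did not overlap, with bleomycin highest, though library 1 with ST045849 (20.5 FPKM) was close to bleomycin library 3 (21.0 FPKM). Of all tested genes 21% lay wholly above vehicle with ST045849 and 21.4% with bleomycin. With ST045849 8.67% lay wholly below bleomycin. The differences were 1.30 ± 0.23 for bleomycin plus ST045849 against vehicle and 1.96 ± 0.23 for bleomycin against vehicle (limma adjusted p = 0.00781 and 0.00241). Among all tested genes 8.11% and 4.2% rose in these comparisons. The call with ST045849 was lost in the fit of those 2 groups alone with a replicate block (adjusted p = 0.0597). Between the bleomycin groups Plat gave -0.66 ± 0.23 with ST045849 (adjusted p = 0.203; 0.0353 in the paired fit, where Pcsk5, a furin-like convertase, was also lower). The paired fit called 8% of all tested genes lower. Plg, the plasminogen gene itself, was under 1 FPKM in every library.

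Of 17 listed transcription factors known to act on Mmp genes 15 were tested, and 2 rose in both bleomycin groups while 0 fell. Among all tested genes 8.11% rose and 1.74% fell with ST045849 against vehicle. With bleomycin against vehicle 4.2% rose and 0.675% fell. Fosl1, which encodes the AP-1 subunit Fra-1, stood at 6.87, 15.4 and 12.6 FPKM in bleomycin plus ST045849, 9.38, 9.93 and 14.3 FPKM in bleomycin, and 3.70, 1.68 and 2.22 FPKM in vehicle libraries. No vehicle library reached a bleomycin library. The difference was 1.81 ± 0.30 in both comparisons (limma adjusted p = 0.00635 with ST045849 and 0.00787 without), and neither call was lost when a library was left out. The Fosl1 call with ST045849 was lost in the fit of those 2 groups alone with a replicate block (adjusted p = 0.0556). Epas1 (Hif-2 alpha, a regulator of Mmp13 in mouse chondrocytes) averaged 6.62 ± 2.06 FPKM in bleomycin plus ST045849, 8.05 ± 1.06 FPKM in bleomycin and 3.06 ± 0.360 FPKM in vehicle libraries (SD, n = 3 each). Its differences were 0.88 and 1.15 (limma adjusted p = 0.0303 and 0.0138). The call with ST045849 was lost without library 2 of that group or any vehicle library (adjusted p up to 0.0953, without vehicle library 3). It was kept in 7 of 14 alternative settings and lost with TPM, median-of-ratios scaling and quantile normalization, among others (adjusted p up to 0.153). The call in bleomycin was lost without bleomycin library 1 or any vehicle library (up to 0.0647, without bleomycin library 1). In the paired fit of the bleomycin groups Fosl2, Runx2 and Nfkbiz were lower and Cebpb and Jund higher with ST045849, and Fosl1 was not called. Of all tested genes that fit called 8% lower and 11.3% higher.

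Of 15 listed ligands and receptors that induce Mmp genes or bear on their products 9 were tested. Il1a, Il1b, Tnf and Il17a, the classical inducers, were listed at 0 in all 9 libraries, and Il6 was under 0.1 FPKM in each. Lif rose in both bleomycin groups, with means of 0.904 ± 0.269 FPKM in bleomycin plus ST045849, 1.06 ± 0.311 FPKM in bleomycin and 0.187 ± 0.0505 FPKM in vehicle libraries, and differences of 0.67 and 0.79 (limma adjusted p = 0.0339 and 0.0275). With ST045849 the Lif call was lost without library 2 or 3 of that group, bleomycin library 2 or vehicle library 2 or 3 (adjusted p up to 0.130, without vehicle library 2). In bleomycin it was lost without bleomycin library 2 or 3 or any vehicle library (up to 0.116, without vehicle library 3). Removal of the length trend ended both Lif calls (0.0973 and 0.0505). Over 13 alternative settings the Lif call was kept in 7 with ST045849 and in 9 without it. Lif reached the 1 FPKM needed for a test only in libraries of the bleomycin groups, with vehicle at most 0.244 FPKM. Both Lif calls were lost with no filter on low values. Among all tested genes 8.11% and 4.2% rose in those comparisons. Tnfrsf1a, the main receptor for tumour necrosis factor, rose in bleomycin plus ST045849 against vehicle (0.79 ± 0.20, adjusted p = 0.0343; kept only without library 1 of bleomycin plus ST045849 or vehicle library 1, up to 0.154 without vehicle library 2, and 0.142 with the length trend removed). The Tnfrsf1a call was kept in 6 of 14 alternative settings (adjusted p up to 0.385). In the paired fit of the bleomycin groups 5 of the 9 were lower with ST045849, namely Ddr2, Lifr, Lrp1, Il1r1 and Il6st, where 8% of all tested genes were lower.

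All 10 listed matrix substrates were tested. Dcn (decorin) rose with bleomycin against vehicle, by 1.21 ± 0.31 (limma adjusted p = 0.0489), a call kept only without library 1 or 2 of bleomycin plus ST045849 among the 9 fits (up to 0.186, without bleomycin library 1). The Dcn call was kept in 8 of 14 alternative settings (adjusted p up to 0.158), and 4.2% of all tested genes rose in that comparison. Acan (aggrecan) and Col10a1 (the collagen of hypertrophic chondrocytes) fell in bleomycin plus ST045849 against vehicle, with differences of -1.66 ± 0.28 and -1.30 ± 0.28 (adjusted p = 0.00657 and 0.0180). There 1.74% of all tested genes fell. The Acan call held in all 9 fits that left out a library and the Col10a1 call was lost without library 2 of bleomycin plus ST045849 (0.0612) or vehicle library 2 or 3 (0.0890 and 0.0660). Both calls were lost in the fit of those 2 groups alone with a replicate block (0.0973 and 0.0949). The Col10a1 call was also lost with no filter. Acan averaged 412 ± 135 FPKM in bleomycin plus ST045849, 619 ± 73.1 FPKM in bleomycin and 1275 ± 243 FPKM in vehicle libraries. Col2a1, the substrate most tied to Mmp13, averaged 12824 ± 2906 FPKM in bleomycin plus ST045849, 15385 ± 3045 FPKM in bleomycin and 19955 ± 3891 FPKM in vehicle libraries and did not pass the test in any comparison. In the paired fit of the bleomycin groups 4 substrates were lower with ST045849 (Col3a1, Fn1, Hapln1 and Col10a1), where 8% of all tested genes were lower. That fit called 2403 genes in all, and 170 once the length trend was removed.

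Markers of cell types were read beside these results. Of 10 chondrocyte markers 0 were called with bleomycin against vehicle. There 9 of the 10 lay below 0, with a median log2 difference of -0.50, beside 0.10 for all tested genes. With bleomycin plus ST045849 against vehicle 4 fell (Col11a1, Col11a2, Matn3 and Acan), as did 1.74% of all tested genes. The summed level of the 10 markers was 13090 to 19130 FPKM in bleomycin plus ST045849, 16980 to 24930 FPKM in bleomycin and 23490 to 33880 FPKM in vehicle libraries. Of 10 macrophage markers 3 were tested, and Lyz2, Cd14 and Cd68 rose in both bleomycin groups against vehicle. Among all tested genes 8.11% rose with ST045849 against vehicle and 4.2% with bleomycin against vehicle. The macrophage sum was 11.9 to 17.98 FPKM in bleomycin plus ST045849, 10.9 to 12.6 FPKM in bleomycin and 3.05 to 5.75 FPKM in vehicle libraries, with 7 of the 10 under 1 FPKM in every library. Tyrobp, C1qb and C1qc had 0 FPKM throughout. C1qa, Adgre1 and Ptprc had 0 FPKM in vehicle and reached at most 0.144, 0.0247 and 0.020001 FPKM in a library of the bleomycin groups. Csf1r averaged 0.0736 FPKM in bleomycin plus ST045849, 0.0609 FPKM in bleomycin and 0.0300 FPKM in vehicle libraries. Of 8 fibroblast or synovial markers Thy1 and Prg4 (lubricin, also made by surface chondrocytes) rose in both bleomycin groups, and the sum was 2518 to 4851 FPKM in bleomycin plus ST045849, 4167 to 6096 FPKM in bleomycin and 2936 to 4033 FPKM in vehicle libraries. Of 7 osteoclast markers 2 were tested, Acp5 and Ctsk, and 0 were called by limma over the 9 libraries, while Ctsk was higher with ST045849 in the paired fit. The paired fit, which called Mmp3 lower with ST045849, also called 3 chondrocyte markers lower (Col11a1, Hapln1 and Matn3) and 2 fibroblast markers lower (Col3a1 and Pdgfra). Of all tested genes the paired fit called 8% lower and 11.3% higher. In the fit of 9 libraries, ST045849 against bleomycin gave differences below 0 in 8 of 8 fibroblast and 9 of 10 chondrocyte markers. Of these 0 were called. The difference lay below 0 in 44.9% of all tested genes. None of 5 endothelial markers was tested, and their sum was at most 0.390 FPKM in any library. With a library left out, the Prg4 and Acan calls were kept throughout, Matn3 was lost without vehicle library 2 (adjusted p = 0.0542), and Col11a1 and Col11a2 were kept only without library 1 of bleomycin plus ST045849 or vehicle library 1 (up to 0.161 and 0.176). With ST045849 against vehicle, Cd14, Cd68 and Thy1 were lost without vehicle library 2 or 3 (up to 0.0804, 0.0724 and 0.137), and Thy1 also without library 2 of bleomycin plus ST045849 (0.0717). With bleomycin against vehicle, all 4 of Lyz2, Cd14, Cd68 and Thy1 were lost without vehicle library 2 or 3 (up to 0.0796, 0.163, 0.122 and 0.0649), as were Lyz2 and Cd14 without any bleomycin library, Cd68 without bleomycin library 2 or 3 and Thy1 without bleomycin library 1. Removal of the length trend ended the calls of Cd14 (0.145), Thy1 (0.0863) and Col11a2 (0.0551) with ST045849 against vehicle and of Cd14 with bleomycin against vehicle (0.0584). Over 14 alternative settings with ST045849 against vehicle, Col11a1 was kept in 8, Col11a2 and Thy1 in 9, Matn3 in 12 and Acan in 13. In each comparison with vehicle Cd14 was kept in 9 and Cd68 in 10 of 13 alternative settings. The part of these other cell types in the Mmp differences was not tested.

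Across the 9 libraries, the tested genes whose log2(FPKM + 1) followed Mmp3 most closely were Npr2 (Pearson 0.991), Tmem119 (0.982), Mill2 (0.981), Dram1 (0.981) and Dtx3l (0.980). For Mmp13 they were Dram1 (0.975), Fn3krp (0.957), Fst (0.956), Fastkd1 (0.954) and Tmod1 (0.954). Dram1 was in both lists, at 5.33, 3.25 and 3.52 FPKM in bleomycin plus ST045849, 5.13, 3.80 and 3.98 FPKM in bleomycin, and 2.54, 1.99 and 2.02 FPKM in vehicle libraries. Like Mmp3 and Mmp13 it was highest in library 1 of each group. These correlations over 9 points describe likeness only, since the libraries of a group share their treatment. Among the Mmp genes themselves Mmp3 was most like Mmp19 (0.977) and Mmp13 (0.950), Mmp11 was most like Mmp23 (0.920), and Mmp2 and Mmp11 were least alike (0.187).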

How the data were processed

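RNA of 9 libraries was sequenced after stranded poly(A) preparation, per the labels' protocols. The submitters' processing notes name Trimmomatic (trimming), STAR (alignment) and GRCm38, versions not stated. The deposited values are FPKM per gene, made by the authors. For the program, the annotation and strand use in counting, the sources used here state nothing. Of low values, 27.7 to 32.1% lay near a whole step (tolerance 0.02), while chance gives 4%. Whole reads were thus not recovered, no count test was run and depth is an estimate.

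Symbols came from the deposited row names, and coordinates and exon lengths from GENCODE vM21. The 12441 genes that reached 1 FPKM in 3 or more of the 9 libraries were kept. Their log2(FPKM + 1) values were fitted with limma 3.58.1 in R 4.3.3, with 1 coefficient per group and trended moderated variances. Benjamini-Hochberg adjustment ran over all tested genes. Called means an adjusted p below 0.05 in limma, which gave every adjusted p printed here. Intervals are 95% limma intervals. The fit was tested on simulated data.

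The Mmp genes, 12 lists with 112 symbols, tests and alternatives were chosen with earlier results of these data known. All 10 Mmp genes are named, and of the other lists each called gene (otherwise up to 2 with the highest mean). For Mmp3 and Mmp13 the 5 most correlated genes are named. Some further genes (Timp1, Timp3, Reck, Il6, Plg, Col2a1, Csf1r and those called only in the paired fit) were named after their values were seen. The alternatives were 14 settings and the removal of each of the 9 libraries.

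Pairing by replicate number was checked by correlating deviations from the group means. Between bleomycin plus ST045849 and bleomycin the equal numbers correlated at 0.466, 0.481 and 0.500, all above 0.1, so paired values are given too. Only the data, and no label, show this pairing.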

Additional observations from a re-analysis of the deposited data

How the results depend on the processing

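Against vehicle, the direction of Mmp3, Mmp13, Mmp14, Mmp11, Mmp19 and Mmp23 was kept in all 14 alternatives and in each of the 9 fits that left out a library. Mmp2 with ST045849 against vehicle turned to -0.070 (quantile normalization) and -0.018 (length trend removed, with and without pairing), and spanned -0.0031 (without library 1 of that group) to 0.43 when a library was left out. Mmp13 with ST045849 against bleomycin spanned -0.71 (without library 1 of bleomycin plus ST045849) to 0.26 when a library was left out. It was above 0 in 2 of the 9 fits and was 0.087 in the paired fit without pair 2. The cause was not tested. Mmp23 with ST045849 against vehicle missed the threshold in the paired fit with the length trend removed (adjusted p = 0.0546).

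With ST045849 against bleomycin, all genes called numbered 0 in the fit of 9 libraries, 1 with no filter, 2 each with a mean of at least 5 FPKM, quantile normalization, length trend removed or array weights, 2403 with both groups alone and a replicate block, and 170 with that block and the length trend removed. Of the Mmp genes 1 was called in each of the last 2. Leaving out a library gave 0 to 2225 genes and 0 Mmp genes. The paired fit without each pair, chosen after seeing the data, gave 216, 294 and 4237 genes without pair 2, 3 and 1 and 0 to 2 Mmp genes. Without library 1 of bleomycin plus ST045849 there were 2225 calls.

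Bleomycin against vehicle gave 607 calls, 284 with a mean of at least 5 FPKM, 1024 with both groups alone, 1047 with pairing and the length trend removed, and 1938 with array weights. Leaving out a library gave 184 to 829 genes and 3 to 5 Mmp genes. With ST045849 against vehicle there were 1225 calls, 651 with no filter, 660 with a mean of at least 5 FPKM, 710 with TPM, 621 with both groups alone, 199 with those and a replicate block, 779 with the length trend removed, 242 with block and length removal, and 2767 with array weights. Leaving out a library gave 286 to 3060 genes and 3 to 5 Mmp genes. Mmp genes numbered 3 with no filter, quantile normalization, TPM, or length trend removed with or without the block.

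Against vehicle, equal replicate numbers did not pair. Their correlations were -0.519, -0.279 and 0.424 with ST045849 and -0.071, -0.026 and 0.546 with bleomycin, and unequal numbers reached 0.568. With a replicate block over 9 libraries the calls numbered 1386 and 733, with 5 and 4 Mmp genes. Leaving 2 libraries in a group assumes that they vary like the other groups. Mmp9, Mmp10 and Mmp12 rest on few fragments and were tested only with no filter, where none passed.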
